A study of Saccharomyces cerevisiae with 2 samples.

Results

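The genes described here are the nuclear tRNA genes of Saccharomyces cerevisiae whose anticodon begins with adenosine. They were taken by name from the nuclear entries of the deposited comparison table, 58 of 252 listed tRNA genes. There were 11 tA(AGC) genes for alanine, 13 tI(AAU) genes for isoleucine, 5 tR(ACG) genes for arginine, 10 tS(AGA) genes for serine, 5 tT(AGU) genes for threonine and 14 tV(AAC) genes for valine. The proline genes tP(AGG), whose anticodon also begins with A, are not among them. The mutant strain carried cdk1-as1, an analog-sensitive allele of the cyclin-dependent kinase Cdk1 that is hypomorphic without any inhibitor, and its reference was a WT strain with CDK1. Small RNA of S phase cells, released from an α factor arrest, was sequenced from 1 cdk1-as1 library and 1 WT library. The labels do not say whether nocodazole was in the medium after release. The tables hold tRNA genes only, so the strains could not be checked on CDK1 or on cell cycle genes. All differences are therefore between these libraries, with no replicate check and no test.

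The first anticodon base of a tRNA pairs with the third base of the codon, the wobble position. In yeast the Tad2-Tad3 deaminase converts an adenosine at this place to inosine, which can pair with U, C and A, so that 1 tRNA serves several codons of the same amino acid. The genes are transcribed by RNA polymerase III from an internal promoter made of an A box and a B box, to which TFIIIC binds, and transcription ends at a run of T after the gene. The editing itself is not seen in these tables, which hold 1 level per gene.

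The gene sequences show why the copies of a family are hard to tell apart. All 58 genes were found at their coordinates in RefSeq assembly R64, none has an intron, all 58 carry the anticodon of their name, and the annotated amino acid was that of the name in all 58. They are 73 to 82 nt long and hold 7 different sequences, 1 per family and a further valine sequence found in 1 gene. Each is printed below as the DNA of the gene from 5′ to 3′, with the anticodon in capitals, for 1 gene that carries it.
tA(AGC)D, chromosome IV from 410379 to 410451, shared by 11 genes: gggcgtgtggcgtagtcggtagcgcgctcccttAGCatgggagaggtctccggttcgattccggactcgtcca
tI(AAU)B, chromosome II from 197494 to 197567, shared by 13 genes: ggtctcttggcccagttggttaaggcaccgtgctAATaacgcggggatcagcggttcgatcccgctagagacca
tR(ACG)D, chromosome IV from 619969 to 620041, shared by 5 genes: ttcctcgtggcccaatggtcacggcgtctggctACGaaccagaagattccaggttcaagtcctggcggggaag
tS(AGA)A, chromosome I from 182522 to 182603, shared by 10 genes: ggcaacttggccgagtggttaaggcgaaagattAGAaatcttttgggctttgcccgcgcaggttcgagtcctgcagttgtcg
tT(AGU)D, chromosome IV from 434264 to 434336, shared by 5 genes: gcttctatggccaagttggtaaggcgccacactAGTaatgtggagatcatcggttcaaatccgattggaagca
tV(AAC)E1, chromosome V from 438700 to 438773, shared by 13 genes: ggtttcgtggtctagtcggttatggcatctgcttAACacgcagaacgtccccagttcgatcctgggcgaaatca
tV(AAC)O, chromosome XV from 663812 to 663885, 1 gene: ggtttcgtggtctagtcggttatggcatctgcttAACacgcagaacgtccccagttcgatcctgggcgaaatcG
The last capital in tV(AAC)O marks its only difference from the other valine genes, A74G, counted from 1 at the first base of the gene. This is the discriminator base, the unpaired base to which the CCA end is added. The genes printed for arginine, serine and threonine and tV(AAC)O lie on the Crick strand, the reverse strand of the reference, and the others on the Watson strand.

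The genes with wobble A held a smaller part of the counts in cdk1-as1 than in WT. The counts are those of the authors and need not be whole. Over the 58 genes they summed to 46.6 in the cdk1-as1 library and to 205.8 in the WT library, or 22.7% of WT. The log2 ratio of the sums was −2.14, with a 95% exact binomial interval of −2.62 to −1.67. Over the 181 other nuclear tRNA genes the sums were 1459 in cdk1-as1 and 2682 in WT, a log2 ratio of −0.88 (−0.97 to −0.79), so the intervals did not overlap. These intervals, like those given for the families, leave out everything but counting error, and they assume that a count is a sequenced fragment. The genes took 2.97% of all tRNA counts in cdk1-as1 (exact interval 2.21 to 3.96%) and 6.97% in WT (6.09 to 7.96%). Count sums and their ratios, here and for the families, are not scaled to the library totals. These were 1570 counts in cdk1-as1 and 2952 in WT, or 53.2% of WT. At equal total counts of the libraries the log2 ratio of the sums was −1.23. Equal totals remove any difference common to the listed genes.

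In FPKM, the length-scaled level in the deposited tables, the direction was the same. The 58 genes summed to 308803 FPKM in cdk1-as1 and to 1129731 FPKM in WT, a log2 ratio of −1.87, against −1.19 over the other nuclear genes. Of the WT sum, 142826 FPKM came from the 6 Watson strand tI(AAU) genes, on 0.0472 counts in all. Their part makes the summed ratio more negative and is not backed by counts. The cdk1-as1 value was the lower one in 56 of the 56 genes listed for both strains, and in 91.1% of the 191 nuclear tRNA genes listed for both. More than 2-fold lower were 47 of the 56, against 67.0% of the nuclear genes. At equal total FPKM, which raises every log2 ratio by 1.27, 47 of the 56 were lower, against 63.4%. In counts 43 of the 56 were lower, against 82.7%. The median log2 ratio of FPKM was −1.58 over the 56 genes and −1.48 over all nuclear genes, so that the median gene lay near the nuclear median and the gap lay in the summed levels. The 56 genes hold only 11 different ratios, as shown next, and their number does not count independent measurements.

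Gene copies carried their values by sequence and by strand. The 58 genes formed 12 sets of identical values, and each set held all listed copies of 1 sequence on 1 strand, 21 genes on the Watson strand and 37 on the Crick strand. The 11 groups of at least 2 members with the same sequence and strand each had 1 value. The 5 sequences found on both strands had a different value on each strand in all 5 cases. The same held for 21 of 21 further nuclear sequences with copies on both strands. Among all other nuclear sequences, 29 of the 38 groups of copies on 1 strand had 1 value. Copies on opposite strands are identical over the whole gene, so a fragment within the gene could come from any of them, and a level per gene or per strand is uncertain. The summed count of a family does not depend on how fragments were divided among its listed copies. For threonine it can depend on the division with identical copies that are not analysed here.

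**Figure D1:**
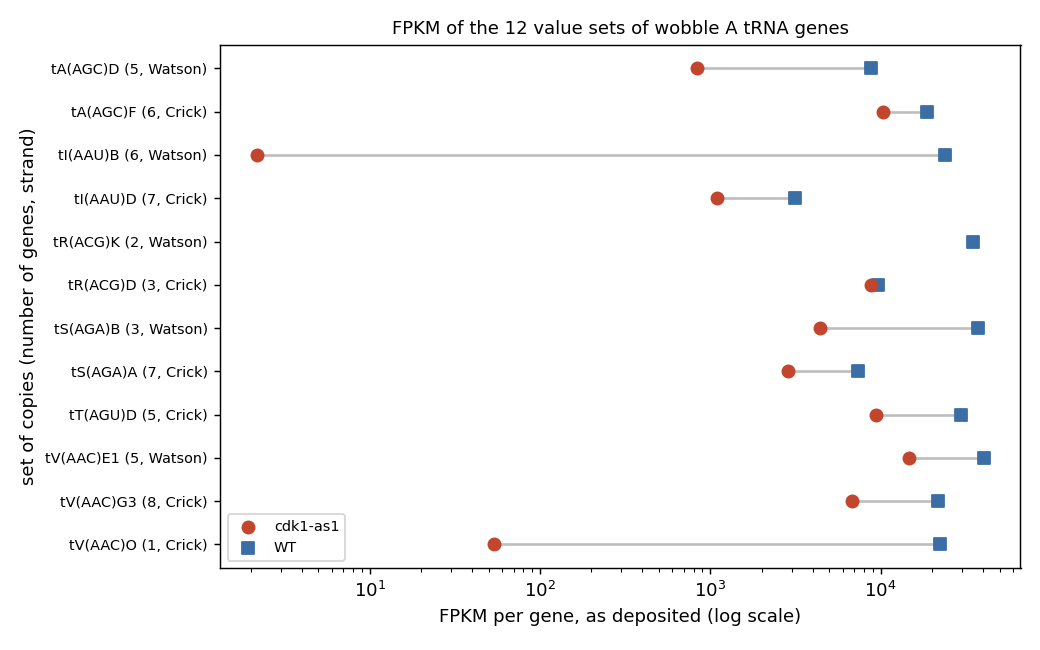
FPKM per gene on a log scale for the 12 sets of copies with identical values, each row named by 1 gene, its number of genes and their strand, with circles for cdk1-as1 and squares for WT. In each row with both points the circle lies left of the square, from 2.17 against 23804 FPKM for tI(AAU)B to 8816 against 9690 FPKM for tR(ACG)D, and tR(ACG)K has a WT point only.

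Valine tRNA with the anticodon AAC, which serves the codons GUU and GUC and has the most genes here, had the highest counts in both libraries. The 14 genes summed to 25.9 counts in cdk1-as1 (95% Poisson interval 17.0 to 38.1) and to 111 in WT (91.3 to 134), a log2 ratio of −2.10 (−2.77 to −1.47). The set of tV(AAC)E1 with 4 other Watson strand copies had 14675 FPKM and 3.79 counts per gene in cdk1-as1, against 40580 FPKM and 10.6 counts in WT. Its log2 ratio was −1.47 in FPKM and −1.49 in counts, the closest match of the units among the sets. The set of tV(AAC)G3, on chromosome VII from 73829 to 73902, with 7 other Crick strand copies had 6806 FPKM and 0.867 counts per gene in cdk1-as1, against 21679 FPKM and 6.55 counts in WT. Its log2 ratio was −1.67 in FPKM and −2.92 in counts.

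The valine gene with its own discriminator base had the lowest FPKM of its family in cdk1-as1, on less than 1 count. In cdk1-as1 tV(AAC)O had 53.8 FPKM and 0.00313 counts, and in WT 22233 FPKM and 5.74 counts. Its WT level lay near the 21679 FPKM of the other Crick strand valine genes, and its cdk1-as1 level below their 6806 FPKM. In cdk1-as1 these genes also had less than 1 count each, so a difference between them and tV(AAC)O was not detectable at this depth. The log2 ratio was −8.69 in FPKM. As rounded counts, 0 against 6 allow a log2 ratio of up to −0.24, so the counts leave room for a much smaller difference. Over its length it differs from the other valine genes in 1 base only, so most fragments would match these genes as well.

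Threonine tRNA with the anticodon AGU, which serves ACU and ACC, had a similar ratio in FPKM. Its 5 genes, the set of tT(AGU)D, share a value of 9409 FPKM and 1.18 counts per gene in cdk1-as1, against 29612 FPKM and 7.92 counts in WT. The log2 ratio was −1.65 in FPKM. In summed counts, 5.92 in cdk1-as1 and 39.6 in WT, it was −2.74 (−4.27 to −1.49). All 5 lie on the Crick strand. RefSeq annotates 11 genes with this sequence, and the other 6, all on the Watson strand, are not analysed here. Any fragments assigned to those 6 genes are missing from the threonine sums, so the ratio holds for the 5 listed genes only. For the other families every annotated gene with a printed sequence was measured.

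Alanine tRNA with the anticodon AGC, which serves GCU and GCC, had 8.20 counts in cdk1-as1 (3.45 to 15.8) and 34.9 in WT (24.4 to 48.7), a log2 ratio of −2.09. Its strands had different ratios in FPKM. The set of tA(AGC)F, on chromosome VI from 204924 to 204996, with 5 other Crick strand copies had 10358 FPKM and 1.34 counts per gene in cdk1-as1, against 18650 FPKM and 4.57 counts in WT, a log2 FPKM ratio of −0.85. The set of tA(AGC)D with 4 other Watson strand copies had 835 FPKM per gene and 0.177 counts in all in cdk1-as1, against 8749 FPKM and 7.48 counts in WT, a log2 FPKM ratio of −3.39. At equal total FPKM the Crick strand set lay above 0, at 0.42, and the Watson strand set stayed below it, at −2.12. In counts the log2 ratio was −1.77 (−3.10 to −0.58) for the Crick strand set and −5.40 for the Watson strand set, whose interval has no lower bound and ends at −0.53, so the strands were not told apart. At equal total counts the Crick strand set lay at −0.86, the opposite sign to its value at equal total FPKM. All 11 genes have the same sequence.

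Arginine tRNA with the anticodon ACG, whose inosine can pair with the last base of CGU, CGC and CGA, had the fewest genes besides threonine. It was split by strand as well. The Watson strand genes tR(ACG)K, on chromosome XI from 490968 to 491040, and tR(ACG)L, on chromosome XII from 374355 to 374427, were not listed in cdk1-as1 and had 34843 FPKM and 5.25 counts each in WT. The Crick strand genes tR(ACG)D, tR(ACG)E and tR(ACG)O had 8816 FPKM and 0.612 counts each in cdk1-as1, against 9690 FPKM and 0.955 counts in WT, a log2 FPKM ratio of −0.14. This was the ratio nearest to 0 among all sets, and it lay at 1.13 at equal total FPKM. Summed over the 5 genes the picture was another one, with 1.83 counts in cdk1-as1 and 13.4 in WT, a log2 ratio of −2.86 (−5.89 to −0.56), and of −1.90 in FPKM. A median over genes with both values thus leaves out the genes that held most of the WT counts of this family.

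**Figure D2:**
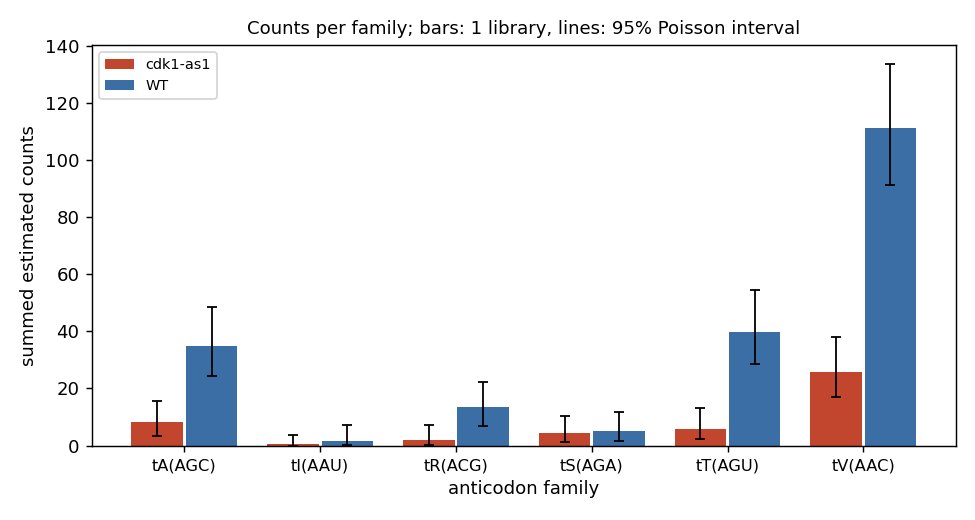
Summed estimated counts per anticodon family in the cdk1-as1 library (left bar) and in the WT library (right bar), with 95% Poisson intervals that cover counting error. The intervals of the 2 libraries do not overlap for the alanine, threonine and valine families, and overlap for the isoleucine, arginine and serine families.

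The serine and isoleucine families were too low in counts to show a difference at this depth, although their FPKM values differed widely. Serine tRNA with the anticodon AGA, which serves UCU and UCC, had 4.35 counts in cdk1-as1 (1.09 to 10.2) and 5.03 in WT (1.62 to 11.7), a log2 ratio of −0.21 (−2.66 to 1.89). In FPKM the set of tS(AGA)B, on chromosome II from 227075 to 227156, with 2 other Watson strand copies had 4437 in cdk1-as1 and 37499 in WT, a log2 ratio of −3.08. The set of tS(AGA)A with 6 other Crick strand copies had 2868 FPKM in cdk1-as1 and 7357 FPKM in WT, a log2 ratio of −1.36. In counts per gene this set was level, at 0.263 in cdk1-as1 and 0.253 in WT. The log2 ratio of summed FPKM of the family was −2.30, inside the interval of its counts and near its lower end.

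Isoleucine tRNA with the anticodon AAU, which serves AUU and AUC, had only 0.438 counts in cdk1-as1 (0 to 3.69) and 1.76 in WT (0.242 to 7.22) over its 13 genes. The set of tI(AAU)D, on chromosome IV from 668007 to 668080, with 6 other Crick strand copies had 1101 FPKM in cdk1-as1 and 3126 FPKM in WT, a log2 ratio of −1.51. The set of tI(AAU)B with 5 other Watson strand copies had 2.17 FPKM in cdk1-as1 and 23804 FPKM in WT, a log2 ratio of −13.42 and the lowest of all nuclear tRNA genes listed for both strains. Its counts per gene ran the other way, 0.0122 in cdk1-as1 and 0.00787 in WT. With these copies of 1 sequence at ratios that far apart and fewer than 3 counts in the whole family in either library, no fold is taken from them.

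FPKM and counts were not in proportion to each other. From the count, the FPKM and the length of a gene follows the number of counts in the whole library that would give this FPKM. For the Watson strand valine genes, the best covered set, this number was 3489 in cdk1-as1 and 3534 in WT. For tV(AAC)G3 it was 1722 in cdk1-as1 and 4081 in WT. For tS(AGA)B it was 2300 in cdk1-as1 and 353 in WT, and for tI(AAU)B 75681 in cdk1-as1 and 4.47 in WT. A gene whose number is small has a high FPKM for its count, so the WT level of tI(AAU)B is high in FPKM and close to nothing in counts. In all, 23 of the 58 genes had less than 1 count in both libraries and 5 had at least 10 in one of them, the Watson strand valine genes.

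**Figure D3:**
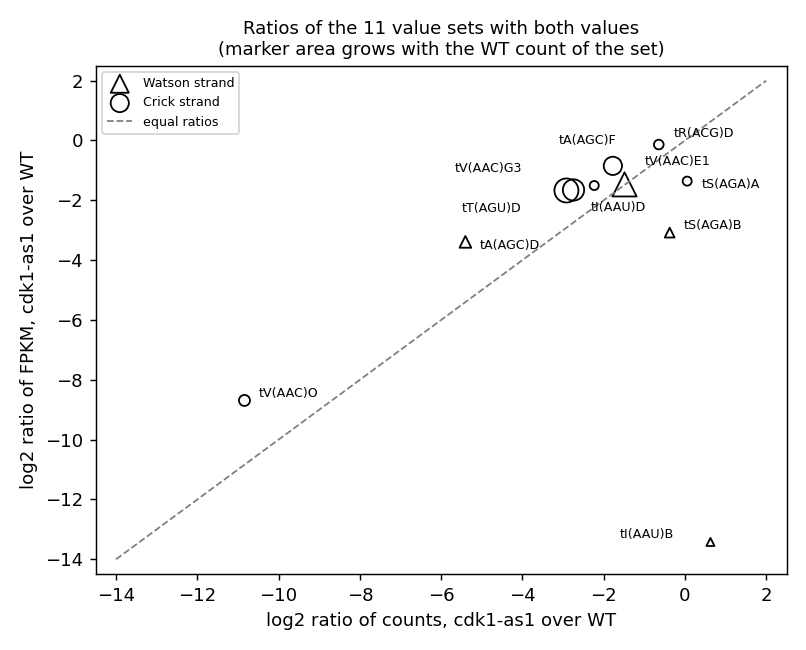
Log2 ratio of FPKM against log2 ratio of counts, cdk1-as1 over WT in both, for the 11 sets of copies with both values, with triangles for Watson and circles for Crick strand genes and the marker area growing with the WT count of the set. tV(AAC)E1 lies on the dashed line of equal ratios at −1.49 in counts and −1.47 in FPKM, and tI(AAU)B lies farthest from it at 0.63 and −13.42.

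By strand the units also differed in order. The 21 Watson strand genes had 21.7 counts in cdk1-as1 and 74.3 in WT, a log2 ratio of −1.78 (−2.51 to −1.05), and the 37 Crick strand genes 24.9 counts in cdk1-as1 and 131.5 in WT, a log2 ratio of −2.40 (−3.08 to −1.78). The intervals overlapped. In summed FPKM the Watson strand genes were the lower ones, at −2.65 against −1.36. Their WT sum of 571653 FPKM includes 142826 FPKM of the tI(AAU)B set, on 0.0472 counts. The other nuclear tRNA genes had −0.95 on the Watson and −1.46 on the Crick strand in summed FPKM, the opposite order. In counts they had −0.64 on the Watson and −1.11 on the Crick strand, the same order as the genes with wobble A. Each strand of the genes with wobble A lay below the count interval of the other nuclear genes on that strand, which was −0.77 to −0.51 for Watson and −1.24 to −0.98 for Crick.

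Among intronless nuclear tRNA genes, those with wobble A were close to those with wobble G in counts and apart from those with wobble U or C. The 49 genes with wobble G summed to 56.0 counts in cdk1-as1 and 253 in WT, a log2 ratio of −2.18 (−2.62 to −1.75), an interval that overlaps that of the wobble A genes almost wholly. The 50 genes with wobble U summed to 489 counts in cdk1-as1 and 814 in WT, a log2 ratio of −0.74 (−0.90 to −0.57). The 25 genes with wobble C summed to 145 counts in cdk1-as1 and 250 in WT, a log2 ratio of −0.79 (−1.09 to −0.48). Summed FPKM gave the same order of the pairs, at −1.87 for A, −2.16 for G, −1.02 for U and −1.23 for C. At equal total counts the log2 ratios were −1.23 for A, −1.27 for G, 0.18 for U and 0.12 for C. The median over genes did not show this, as it was −1.58 for A, −1.69 for G, −1.64 for U and −5.17 for C. The groups hold different families, and whether the base itself matters was not tested. Wobble U families of the same amino acids spread widely in counts. The log2 ratio was −2.55 for tA(UGC), −1.24 for tS(UGA) and −0.22 for tV(UAC), and tR(UCU) was not listed in cdk1-as1.

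**Figure D4:**
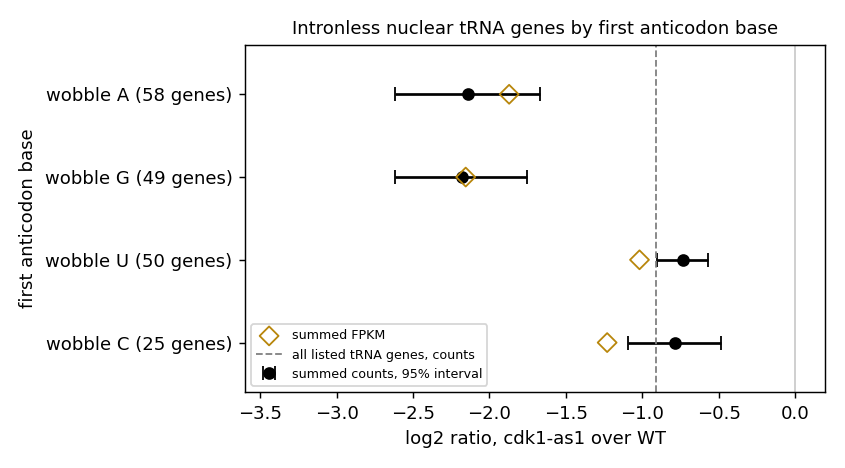
Log2 ratio, cdk1-as1 over WT, of summed counts (filled points, with 95% exact binomial intervals) and of summed FPKM (open diamonds) for intronless nuclear tRNA genes by first anticodon base, with the ratio of all listed tRNA genes in counts as a dashed line at −0.91. The intervals of A and G lie left of the dashed line and do not reach those of U and C.

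Set against the other anticodons of the same amino acids, the families with wobble A lay lower in summed counts as a group. For no single amino acid listed in both libraries were the intervals apart. In isoleucine and valine the family with wobble A had the lower count ratio, and in alanine and serine the higher one. The 25 nuclear genes whose names give another anticodon of these 6 amino acids summed to 117 counts in cdk1-as1 and 250 in WT, a log2 ratio of −1.09 (−1.42 to −0.77). In summed FPKM the groups lay closer, with a log2 ratio of −1.63 for these genes and −1.87 for the genes with wobble A. Both WT sums include high FPKM on less than 1 count. These were 142826 FPKM of the Watson strand tI(AAU) genes and 85945 FPKM of tT(CGU). No difference between the groups is therefore taken from summed FPKM. For alanine the genes tA(UGC) had 9.57 counts in cdk1-as1 and 56.0 in WT, a log2 ratio of −2.55 (−3.62 to −1.50), which includes the ratio of tA(AGC). For serine the other anticodons together had 66.1 counts in cdk1-as1 and 142 in WT, at −1.10 (−1.55 to −0.67), inside the wide interval of tS(AGA). For isoleucine the intron-bearing tI(UAU) genes had 36.6 counts in cdk1-as1 and 39.5 in WT, at −0.11 (−0.80 to 0.57), inside the interval of tI(AAU), which has no lower bound and reaches 2.41. For valine tV(UAC) had 5.08 counts in cdk1-as1 and 5.90 in WT, at −0.22 (−2.31 to 1.71), an interval that overlaps that of tV(AAC). The arginine genes tR(UCU) and the threonine gene tT(CGU) had 5.78 and 0.273 counts in WT and were not listed in cdk1-as1. The arginine gene TRR4, for which the tables give no anticodon, was placed in no group by anticodon or wobble base.

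The order of the families in WT counts did not follow the share of their codons that end in U or C. In 6008 RefSeq coding sequences the codons ending in U or C of these families make up 19.2% of all codons. Codons ending in A, with which inosine can also pair, were left out, such as CGA for arginine with 0.313%. Isoleucine has the largest part of the families, with 4.72% and 13 annotated genes, followed by serine with 3.75% and 10. Both had under 6 counts in either library, whereas valine with 3.27% and 14 genes had the most. Alanine, with 3.25% and 11 genes, came after valine in WT counts, and arginine, with 0.895% and 5 genes, after alanine. Threonine, with 3.28%, is not ranked, because only 5 of its 11 annotated genes were measured. In summed FPKM of WT, isoleucine (164708) and serine (163994) stood above alanine (155648), below valine (398565) and above arginine (98755). The paper cautions that modified bases in mature tRNA may hinder sequencing, so that its data likely favour new, unmodified tRNA. Whether the families differ in this was not tested, and neither order is a measure of tRNA supply.

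The elements for transcription were alike in all families. As letters searched on both strands of each gene without introns, a B box written GTTCNANNC was found in 58 of 58 genes, and in 98.2% of the 275 annotated nuclear tRNA genes. An A box taken as the letters TGGNNNA was found in 58 of 58, and in 82.5% of the annotated genes. Both boxes lie within the gene, and the 58 genes hold only 7 sequences, so these numbers count identical copies. The A box starts at base 8 in all 7 sequences, and the B box at base 53 in alanine, arginine and threonine, at 54 in isoleucine and valine and at 62 in serine, whose tRNA has a long variable arm. The motifs do not overlap. A run of at least 4 T within 20 bases after the gene was found in 58 of 58, and in 97.8% of the annotated genes, with a median longest run of 6 T in both. A match is a description of these letters and no measure of binding.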

How the data were processed

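Small RNA of S phase cells was purified with a miRNA kit and sequenced in pairs from 1 cdk1-as1 and 1 WT library. The methods name Ensembl R64 and ERCC spike-in standards, and the submitters' processing notes name sacCer3. The aligner, the counting program and how the standards entered the values were not given in the sources used here. The authors deposited estimated counts and FPKM per tRNA gene for each library, and RPKM in a side-by-side table, which equal the FPKM values for these genes and give 0.1 to genes absent from a library. Its columns of fold change, FDR and log10 values are the authors' own comparison and were not used. Totals were 1570 counts in cdk1-as1 and 2952 in WT.

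Log2 ratios of FPKM had no pseudocount. Sums were compared with exact binomial and Poisson intervals of rounded counts at 95% (SciPy 1.17.1), and the script was tested on simulated data. Strand, introns and sequences came from RefSeq R64, with coordinates as in the tables. For 1 lysine gene the wobble base was that of its identical copies. Every set of identical values is named by 1 gene. Members and lists were chosen with earlier results of these data known.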

Additional observations from a re-analysis of the deposited data

How the results depend on the processing

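Of 49 recomputed values, 35 kept their direction and moved by at most the longer arm of the counting interval (for numbers of genes, by at most 1.5 times). Families with few counts have wide intervals and pass this rule easily. The same total FPKM moved the median log2 ratio of all genes with wobble A from −1.58 to −0.31 and that of tV(AAC) from −1.67 to −0.40, and turned tA(AGC) to 0.42 and tR(ACG) to 1.13. The same shift of 1.27 took tS(AGA) from −1.36 to −0.089, tI(AAU) from −1.51 to −0.24 and tT(AGU) from −1.65 to −0.38. These families are among the 35 only because their counting intervals are wide. Estimated counts moved the median of tV(AAC) to −2.92 and turned that of tS(AGA) from −1.36 to 0.056. The same total count moved the log2 ratio of summed counts from −2.14 to −1.23. Identical copies counted as 1 moved tI(AAU) from −1.51 to −7.46 and left 11 of 11 ratios lower. With at least 1 count in either library 33 of 33 genes were lower, and with a mean FPKM of at least 10000, 34 of 34. By strand, an alternative chosen after seeing the data, 19 of 19 Watson strand genes were lower with a median of −3.39, and 37 of 37 Crick strand genes. Pseudocounts of 1, 100 and 1000 and the side-by-side table left 56 of 56 genes lower. Without the Watson strand tI(AAU) genes and tV(AAC)O, also chosen after seeing the data, 49 of 49 were lower. As all 56 genes were lower, a pseudocount or a choice among these genes could not change the direction. The side-by-side values equal the FPKM. These numbers of lower genes were thus fixed in advance and add no support, also where they are among the 35. No paired analysis was possible because there is 1 library per strain, and no library can be left out. With 46.6 counts in cdk1-as1, differences between single genes are not resolved.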
